A study of Homo sapiens with 18 samples.

Results

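The effect of heteronemin on K562 cells was measured with and without the cytokine TNFalpha, and the difference between the 2 effects was taken gene by gene. For each of 3 biological replicates the log2 ratio of co-treated against TNFalpha-treated cells was reduced by the log2 ratio of heteronemin-treated against untreated cells. This used 12 of the 18 two-colour Agilent arrays of the study and covered 18334 genes. A negative difference means that heteronemin took a transcript to a lower ratio when TNFalpha was present. Equally, it means that the ratio of TNFalpha-treated over untreated cells was lower when heteronemin was present, since both readings are 1 quantity. A difference of 1 on this scale is a factor of 2.

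K562 is an established human cell line from chronic myelogenous leukaemia, with erythroid features. Co-treated cells had 6 µM heteronemin for 6 h and 10 ng/mL TNFalpha for the last 4 h. TNFalpha-treated cells had 10 ng/mL TNFalpha for the same 4 h, after DMSO in place of heteronemin. Heteronemin-treated cells had 6 µM heteronemin for 6 h, with water in place of TNFalpha. Untreated cells had DMSO and water. Each biological replicate of a comparison was hybridised on 2 arrays with the dyes exchanged, which count as 1 value, so n = 3 per comparison. All 4 states come from 1 cell line, and the labels do not say whether the replicates were separate cultures or days, so p-values measure the spread between these samples.

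TNFalpha binds its receptor on the cell surface and activates the IKK kinase complex, which marks the inhibitor IκBα for destruction by the proteasome. NF-kB dimers then enter the nucleus and switch on inhibitors of the pathway itself, chemokines, cytokines, adhesion molecules and survival genes. Heteronemin is a sesterterpenoid of marine sponges that has been studied as an inhibitor of NF-kB activation and as an inducer of leukaemia cell death.

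Replicate 1 stood apart from the other two in both heteronemin comparisons. The SD over genes of the log2 ratios was 0.384, 0.215 and 0.173 in replicates 1 to 3 of co-treated against TNFalpha-treated cells, and 0.329, 0.195 and 0.164 in those of heteronemin-treated against untreated cells. Its response to TNFalpha also differed for some genes: CXCL8, CXCL1, ICAM1 and CCL2 lay between −0.038 and 0.027 in replicate 1 of TNFalpha-treated against untreated cells, and above 1 in replicates 2 and 3. Other genes were high in replicate 1 of that comparison. Its dye-exchanged arrays read 3.35 and 3.25 for LTB, 2.78 and 2.85 for RELB, and 2.64 and 2.32 for NFKBIA. Results below are therefore given by replicate, with and without replicate 1. The values are ratios without signal levels, so neither the erythroid identity of the cells nor the detection of a transcript above background was checked here.

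Across genes, the effect of heteronemin was similar in the presence and absence of TNFalpha. Over the 18334 genes, the correlation between the 2 effects was 0.811, 0.775 and 0.657 in replicates 1 to 3, given as a description because genes are not independent replicates and each pair shares a replicate number. The slope of the effect with TNFalpha on that without it was 0.945, 0.855 and 0.693. Single arrays were noisier: the 2 dye-exchanged arrays of a replicate correlated at 0.513, 0.510 and 0.259 with TNFalpha. Without TNFalpha they correlated at 0.473, 0.484 and 0.315. The difference was at least 1 in size for 27, 22 and 24 genes in replicates 1 to 3. In limma, 0 of 18334 genes passed a Benjamini-Hochberg adjusted p under 0.05 in either direction, a background of 0.0% (called lower and called higher). At an unadjusted p under 0.05 there were 138 genes lower (0.753%) and 146 higher (0.796%). Together these 284 genes were below the share of 0.05 that this threshold would pass if no gene differed. The fit was thus conservative, and 0 genes passing does not show that no gene differed. Its median residual SD was 0.126, against 0.081 with the replicate numbers as blocks. When the replicate numbers were fitted as blocks, 0 genes passed as well, with 417 lower (2.27%) and 605 higher (3.3%) at an unadjusted p under 0.05. The 95% interval of the difference lay within ±1 for 17960 genes (98.0%) and within ±0.5 for 15076 (82.2%). For these a difference beyond the bound was outside the interval, while smaller ones were not resolved.

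**Figure D1:**
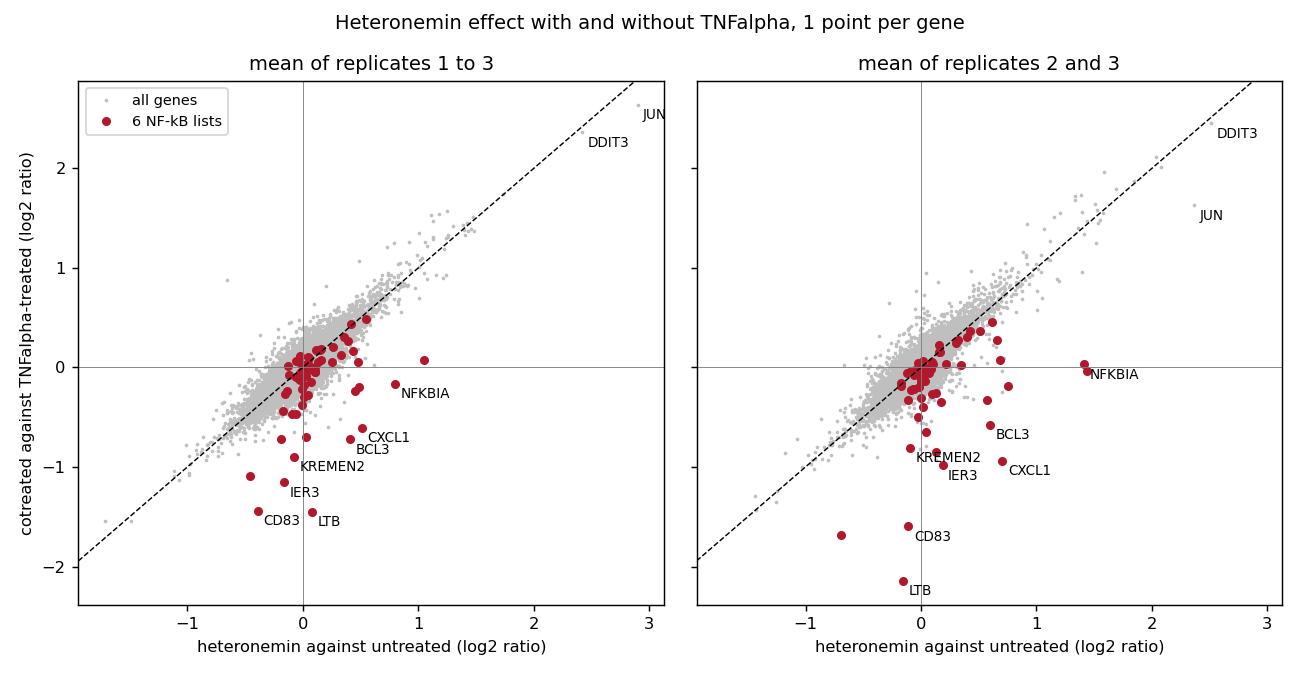
Heteronemin effect in co-treated against TNFalpha-treated cells (vertical axis, log2 ratio) and in heteronemin-treated against untreated cells (horizontal axis, log2 ratio), 1 point per gene, as the mean of 3 replicates on the left and of replicates 2 and 3 on the right. The dashed line marks equal effects; most genes lie along it, and LTB, BCL3, IER3, CD83 and CXCL1, members of the 6 NF-kB lists shown in red, lie below it.

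Only 4 of 18334 genes (0.0218%) had a difference of −0.5 or less in each of the 3 replicates: BCL3, IER3, KREMEN2 and LTB. No gene had a difference of 0.5 or more in each of them (0.0%). All 4 are members of 6 lists of NF-kB pathway genes (inhibitors, subunits, chemokines, cytokines, surface genes and effectors), of whose 70 genes 67 were measured. KREMEN2 is not a textbook NF-kB target and was listed because of its known response to TNFalpha in these samples, so its membership is no independent evidence. All 6 lists were written with earlier results of these data known, so membership of the others is a description as well. None of the 4 passed the adjusted threshold with all replicates.

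BCL3, an atypical member of the IκB family that acts in the nucleus with NF-kB dimers, had log2 ratios of −1.01, −0.64 and −0.51 in replicates 1 to 3 of co-treated against TNFalpha-treated cells, against 0.020, 0.72 and 0.49 in heteronemin-treated against untreated cells. The mean was thus below 0 in every replicate with TNFalpha and above 0, in replicate 1 barely, in every replicate without it, and the groups did not overlap. Its difference was −1.13 ± 0.20 (SD, n = 3), with a 95% interval of −1.63 to −0.63. Here and below, the SD is that of the differences within replicate numbers, while the interval comes from limma without the block. The dye-exchanged arrays read −1.02 and −1.0, −0.73 and −0.55, and −0.42 and −0.60 with TNFalpha, against 0.20 and −0.16, 0.71 and 0.72, and 0.40 and 0.57 without it. The pair of replicate 1 without TNFalpha thus differed in sign, and its mean near 0 does not settle one. BCL3 had the smallest adjusted p of all genes in limma with the replicate block, at 0.0925, which misses the threshold. It passed with the block when replicate 2 (adjusted p = 0.00878 in limma) or replicate 3 (adjusted p = 0.0346) was left out. These fits left each gene 1 residual degree of freedom, against 9.70 and 8.38 that limma took from all genes. The spread behind these p-values was thus mostly not that of BCL3 itself.

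KREMEN2, a receptor for the Dickkopf antagonists of Wnt signalling, had the smallest unadjusted p of the genes below 0 (0.000499 in limma). It was at −1.08, −1.0 and −0.62 with TNFalpha, against −0.033, −0.14 and −0.053 without it. Heteronemin alone left it near 0, in replicate 1 as the mean of arrays at −0.34 and 0.28, and the values with TNFalpha were all lower. The difference was −0.82 ± 0.24 (SD, n = 3; 95% interval −1.13 to −0.51).

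IER3, an early-response gene linked to survival, was at −1.49, −0.94 and −1.02 with TNFalpha, against −0.85, 0.33 and 0.042 without it. In replicate 1 it was low under both conditions, and in replicates 2 and 3 it was low only with TNFalpha. The difference was −0.99 ± 0.32 (SD, n = 3; 95% interval −1.75 to −0.24).

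LTB encodes lymphotoxin beta, a membrane-bound cytokine of the TNF family. It was at −0.063, −2.47 and −1.82 with TNFalpha, against 0.54, −0.29 and −0.022 without it. Replicates 2 and 3 had the lowest ratios with TNFalpha, while replicate 1 of co-treated cells overlapped the values without TNFalpha. The difference of −1.53 ± 0.82 (SD, n = 3) was the most negative of all genes, and its interval of −2.97 to −0.090 was wide.

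**Figure D2:**
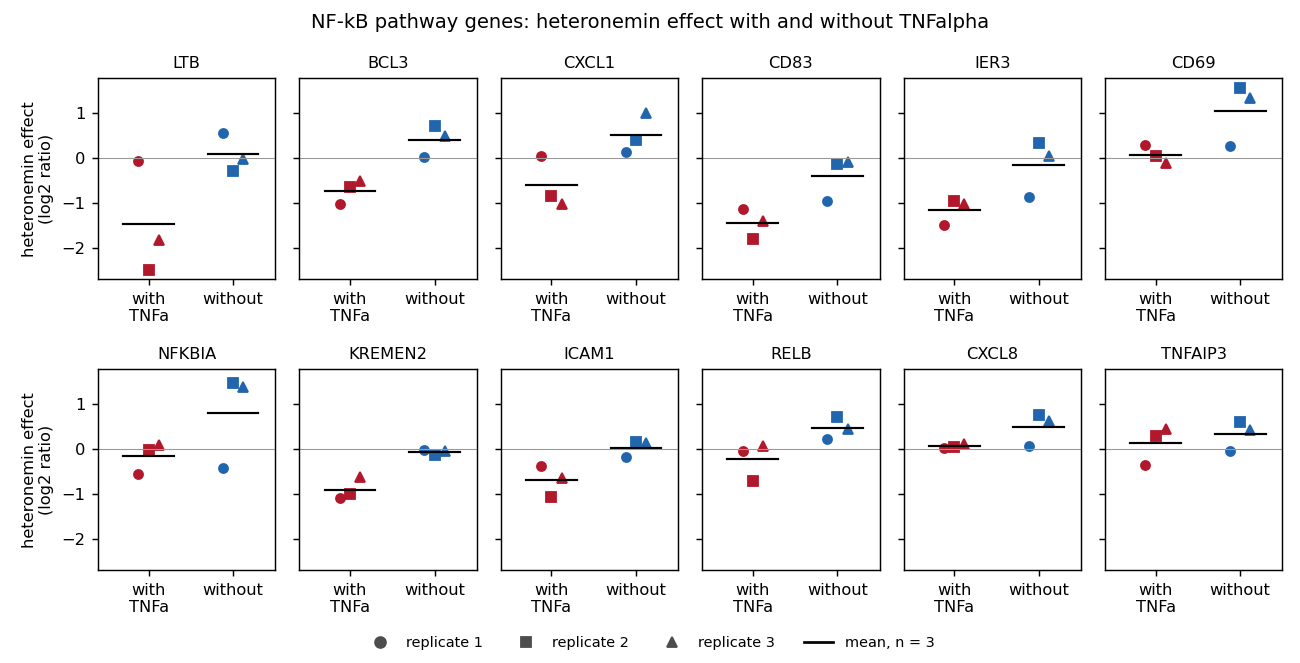
Heteronemin effect (vertical axis, log2 ratio) for 12 NF-kB pathway genes, with TNFalpha (co-treated against TNFalpha-treated cells, left, red) and without it (heteronemin-treated against untreated cells, right, blue). Symbols are the 3 replicates and bars their means; for BCL3, IER3, KREMEN2, CD83, ICAM1, CXCL1 and RELB every value with TNFalpha lies below every value without it.

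NF-kB dimers bind decameric DNA elements, and the promoters of some of these genes hold the letters GGG and, 2 bases on, TTTCC. The sequence before the annotated start is printed for 3 genes that were among the lowest and whose windows held this stretch. They are a cytokine, an inhibitor and a chemokine, and the lines show where the stretch lies. LTB had 2 windows, of which only 1 is printed. Each line gives the 250 bases before the start, 5′ to 3′ on the gene's strand, from RefSeq on GRCh38.p14, with the match in capitals. The LTB window is chr6:31582426-31582675 on the minus strand, that of NFKBIA chr14:35404750-35404999 on the minus strand and that of CXCL1 chr4:73869143-73869392 on the plus strand.
LTB: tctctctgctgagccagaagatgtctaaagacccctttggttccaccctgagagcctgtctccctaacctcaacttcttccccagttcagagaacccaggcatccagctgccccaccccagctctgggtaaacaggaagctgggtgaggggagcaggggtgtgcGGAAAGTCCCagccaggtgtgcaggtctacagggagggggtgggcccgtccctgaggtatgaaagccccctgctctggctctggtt
NFKBIA: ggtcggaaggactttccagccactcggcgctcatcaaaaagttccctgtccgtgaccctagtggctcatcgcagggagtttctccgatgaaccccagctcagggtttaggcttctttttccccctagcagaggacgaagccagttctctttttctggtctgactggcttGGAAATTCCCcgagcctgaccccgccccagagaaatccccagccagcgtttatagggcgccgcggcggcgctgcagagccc
CXCL1: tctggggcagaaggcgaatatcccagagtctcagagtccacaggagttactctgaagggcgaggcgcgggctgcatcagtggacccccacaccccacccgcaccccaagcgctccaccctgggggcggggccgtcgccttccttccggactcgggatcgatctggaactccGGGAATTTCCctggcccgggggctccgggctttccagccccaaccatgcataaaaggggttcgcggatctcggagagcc
The match read GGAAAGTCCC in LTB, GGAAATTCCC in NFKBIA and GGGAATTTCC in CXCL1, that is GGG, any 2 bases and TTTCC, or on the other strand GGAAA, any 2 bases and CCC. It ended 77, 72 and 70 bases before the start of LTB, NFKBIA and CXCL1. Over all promoter windows of this length, 608 of 35116 (1.73%) held a match, as did 355 of 14411 measured genes with a window (2.46%) and 19 of 55 members of the 6 NF-kB lists with a window (34.5%). Of the 15 genes that passed without replicate 1 with the replicate block, named further below, 11 had a window. Only 3 of these (27.3%) held a match, the 3 printed here. The windows of BCL3, CD83 and ICAM1 held none, and IER3, KREMEN2, CD69 and CCL2 are given without a sequence. The letters were chosen with these genes known, and most genes of the lists are known NF-kB targets, so the shares are a description.

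As a group, the NF-kB genes lay mostly below 0. Of the 67 measured members 54 had a negative difference, against 9042 of all 18334 genes (49.3%), and their median was −0.10, against 0.0015 for all genes. At an unadjusted p under 0.05 in limma 17 members were lower and 0 higher, beside 0.753% and 0.796% of all genes. In 15 members all 3 values with TNFalpha lay below all 3 without it, and in 2 they lay above, beside 3.83% and 3.57% of all genes. The list median was −0.077, −0.16 and −0.077 in replicates 1 to 3. Without KREMEN2, 53 of 66 members lay below 0, 16 of them at an unadjusted p under 0.05. None of the 67 members passed the adjusted threshold with all 3 replicates. The lists were written with earlier results of these data known, so these counts are a description.

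Without replicate 1, 5 genes passed, all lower with TNFalpha (0.0273% of genes) and all in the NF-kB lists, and 0 were higher (0.0%). They were NFKBIA (adjusted p = 0.00589 in limma), CD69 (0.0203), BCL3 (0.0443), CD83 (0.0444) and IER3 (0.0449). At an unadjusted p under 0.05 this fit had 452 genes lower (2.47%) and 693 higher (3.78%), among them 23 lower and 0 higher NF-kB members. With replicate blocks added, 15 genes passed, all lower (0.0818%), of which 10 were in the NF-kB lists: LTB, NFKBIA, CD69, CD83, IER3, BCL3, CCL2, CXCL1, ICAM1 and KREMEN2. These fits rest on 2 replicates. With the block each gene had 1 residual degree of freedom, against 6.54 taken from all genes, so its spread was mostly not its own. Without replicate 2 or replicate 3 in place of it, 0 genes passed in the fit without the block.

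Inhibitors of the pathway come first by role. Of 9 measured, 8 had a negative difference, with a list median of −0.22. NFKBIA, which encodes IκBα, was at −0.56, −0.020 and 0.081 in replicates 1 to 3 with TNFalpha, against −0.42, 1.45 and 1.37 without it. Heteronemin alone thus left NFKBIA far above untreated cells in replicates 2 and 3 and below them in replicate 1, while in co-treated cells these 2 replicates stayed near the level of TNFalpha alone. The difference was −0.96 ± 0.72 over 3 replicates and −1.38 in replicates 2 and 3, where it passed.

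NFKBIZ, a nuclear IκB protein, was at 0.090, −0.33 and −0.21 with TNFalpha, against 0.023, 0.082 and 0.12 without it, and NFKBIE, which encodes IκBε, was at −0.81, −0.43 and −0.078 against −0.78, 0.18 and 0.081. Both had their most negative difference in replicate 2, and neither passed. TNIP2, which binds the ubiquitin-editing enzyme A20, was at −0.40, −0.24 and −0.20 against 0.25, 0.10 and −0.21, with a difference of −0.32. Its difference was near 0 in replicate 3. TNFAIP3, which encodes A20, was at −0.36, 0.30 and 0.44 with TNFalpha, against −0.044, 0.60 and 0.42 without it, and its difference of −0.20 had an interval of −0.81 to 0.41. Its 2 features had differences of −0.30 and −0.10. The other 3 inhibitors lay between −0.078 and 0.030.

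All 5 NF-kB subunits had negative differences, with a median of −0.14. RELB, a subunit that pairs with p52 in the alternative branch of the pathway, was at −0.050, −0.71 and 0.056 with TNFalpha, against 0.23, 0.70 and 0.43 without it, so that its values did not overlap. The difference of −0.69 ± 0.63 (SD, n = 3) was largest in replicate 2, at −1.41. NFKB2, which encodes the precursor of p52, was also apart, at −0.034, −0.085 and −0.027 against 0.18, 0.068 and 0.063. Its difference of −0.15 was small, and its 10 features ranged from −0.41 to 0.0012. NFKB1, REL and RELA had differences of −0.10, −0.14 and −0.050.

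Among 12 chemokines, which attract leukocytes, 10 had negative differences and the median was −0.10. CXCL1, a neutrophil attractant, was at 0.050, −0.85 and −1.03 with TNFalpha, against 0.13, 0.41 and 1.00 without it. The groups did not overlap, but replicate 1 had a difference of −0.079, against −1.26 and −2.03 in replicates 2 and 3. CXCL8, which encodes interleukin-8, was at 0.011, 0.048 and 0.11 with TNFalpha, against 0.074, 0.74 and 0.62 without it. Here the co-treated ratios sat near 0 throughout, and it was the ratios without TNFalpha that differed, near 0 in replicate 1 and high in the others.

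CCL2, a monocyte attractant, was at 0.077, −2.16 and −1.20 with TNFalpha, against 0.028, −1.01 and −0.38 without it. It was low under both conditions in replicates 2 and 3, lower with TNFalpha, and near 0 in replicate 1. Its 10 features gave mean differences between −0.69 and −0.57. CXCL2 and CXCL3, close relatives of CXCL1 whose probes may share sequence with it, had smaller differences of −0.27 and −0.062. The other 7 chemokines lay between −0.14 and 0.050.

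Of 11 measured cytokine genes 9 had negative differences, with a median of −0.075. Beside LTB, TNFSF10, which encodes the death ligand TRAIL, was at −0.75, −0.47 and −0.19 with TNFalpha, against −0.053, −0.17 and −0.062 without it. All values with TNFalpha were lower, most so in replicate 1, and the 11 features ranged from −0.65 to 0.11 in their difference. TNF itself was at −0.047, −0.35 and −0.26 against −0.016, 0.026 and −0.025, also without overlap, at a difference of −0.21. Of its 11 features 1 had a difference of −1.01, while the others lay between −0.34 and 0.042. IL6 was at 0.12, −0.051 and 0.10 against 0.078, 0.34 and 0.35. The other 7 cytokine genes lay between −0.11 and 0.13.

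Surface genes of activation and adhesion had 9 of 13 differences below 0, beside 49.3% of all genes, with a median of −0.077. At an unadjusted p under 0.05 there were 5 lower, beside 0.753% of all genes, and 1 of the 5 was KREMEN2, listed for its response in these samples. CD83, a marker of activated immune cells, was at −1.13, −1.79 and −1.40 with TNFalpha, against −0.96, −0.13 and −0.090 without it. Its values did not overlap, and replicate 1 was low without TNFalpha too. ICAM1, the adhesion molecule that binds leukocyte integrins, was at −0.39, −1.06 and −0.64 against −0.19, 0.14 and 0.12. All its values with TNFalpha were below those without, and its 10 features had differences from −1.0 to −0.56.

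CD69, an early activation antigen, was at 0.29, 0.039 and −0.12 with TNFalpha, against 0.26, 1.56 and 1.32 without it. In replicates 2 and 3 the ratio was above 1 without TNFalpha and near 0 with it, and replicate 1 was alike under both conditions. NINJ1, a mediator of membrane rupture, was at −0.85, −0.80 and −0.49 against −0.66, 0.062 and 0.024, and overlapped through replicate 1. The other 8 surface genes lay between −0.13 and 0.14.

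Of 17 measured effectors of survival and inflammation 13 had negative differences, beside 49.3% of all genes, with a median of −0.081. At an unadjusted p under 0.05 there were 5 lower, beside 0.753% of all genes. GADD45B, a stress-response gene, was at −0.12, −0.49 and −0.52 with TNFalpha, against 0.026, 0.053 and −0.10 without it. CFLAR, which encodes the caspase-8 inhibitor c-FLIP, was at −0.14, −0.22 and −0.17 against 0.061, −0.030 and −0.013. Its difference of −0.18 ± 0.023 (SD, n = 3) was small and even across replicates. PLAU, the urokinase protease, was at −0.23, −0.50 and 0.13 against −0.050, 0.77 and 0.74, and its groups overlapped. NUAK2, a kinase of the AMPK family, was at −0.11, −0.56 and −0.23 against −0.011, −0.0065 and 0.049, and TNFAIP2 at −0.71, −0.43 and −0.27 against −0.53, 0.11 and 0.24. The other 11 effectors lay between −0.11 and 0.13.

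Upstream of NF-kB, 15 receptor and IKK components had 9 negative differences and a median of −0.022. TNFRSF1A, the main TNF receptor, was at −0.18, 0.18 and 0.034 with TNFalpha, against −0.20, 0.092 and 0.013 without it. TAB1, an adaptor of the kinase TAK1, had differences of −0.40, −0.058 and −0.10 in replicates 1 to 3, and the kinase gene CHUK −0.26, 0.082 and −0.19. Both were most negative in replicate 1, and their means of −0.18 and −0.13 became −0.078 and −0.055 without it. Of the 15 components, 0 reached an unadjusted p under 0.05.

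Read the other way, the same difference compares the response to TNFalpha in heteronemin-treated cells with that in cells without heteronemin. No array set co-treated against heteronemin-treated cells, so that response was summed within each replicate number from the 3 kinds of array. It shares RNA with the measured response to TNFalpha, and the 2 are given side by side only. BCL3 had log2 ratios of 0.70, 1.81 and 1.54 in heteronemin-treated cells and 1.73, 3.17 and 2.53 in cells without heteronemin. LTB was at 2.69, 0.59 and 0.51 in heteronemin-treated cells and 3.30, 2.77 and 2.30 in cells without it. In heteronemin-treated cells the ratio was thus high in replicate 1 and below 0.6 in replicates 2 and 3.

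NFKBIA was at 2.35, 1.52 and 2.11 in heteronemin-treated cells and 2.48, 2.99 and 3.40 in cells without heteronemin. It thus stayed above 1.5 in every replicate. CXCL8 was at −0.058, 2.90 and 2.44 in heteronemin-treated cells and 0.0042, 3.59 and 2.95 in cells without it. CXCL1 had the highest ratios of these genes in replicates 2 and 3, at −0.12, 5.12 and 4.46 in heteronemin-treated cells and −0.038, 6.38 and 6.49 in cells without it. CCL2 was at 0.055, 0.29 and 0.26 against 0.0057, 1.45 and 1.07, and KREMEN2 at 0.44, 0.37 and 0.23 against 1.48, 1.23 and 0.80. Both stayed below 0.5 in every replicate of heteronemin-treated cells.

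ICAM1 was at −0.17, 1.16 and 1.01 in heteronemin-treated cells and 0.027, 2.36 and 1.77 in cells without it, CD83 at 1.25, 1.58 and 1.34 against 1.42, 3.24 and 2.65, and IER3 at 0.58, 2.32 and 2.33 against 1.22, 3.60 and 3.40. RELB was at 2.54, 0.69 and 0.19 against 2.82, 2.10 and 0.56. JUNB, an AP-1 subunit outside the NF-kB lists, was at 0.30, 0.82 and 1.33 against 0.29, 0.98 and 1.52. Its difference of −0.12 was small.

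**Figure D3:**
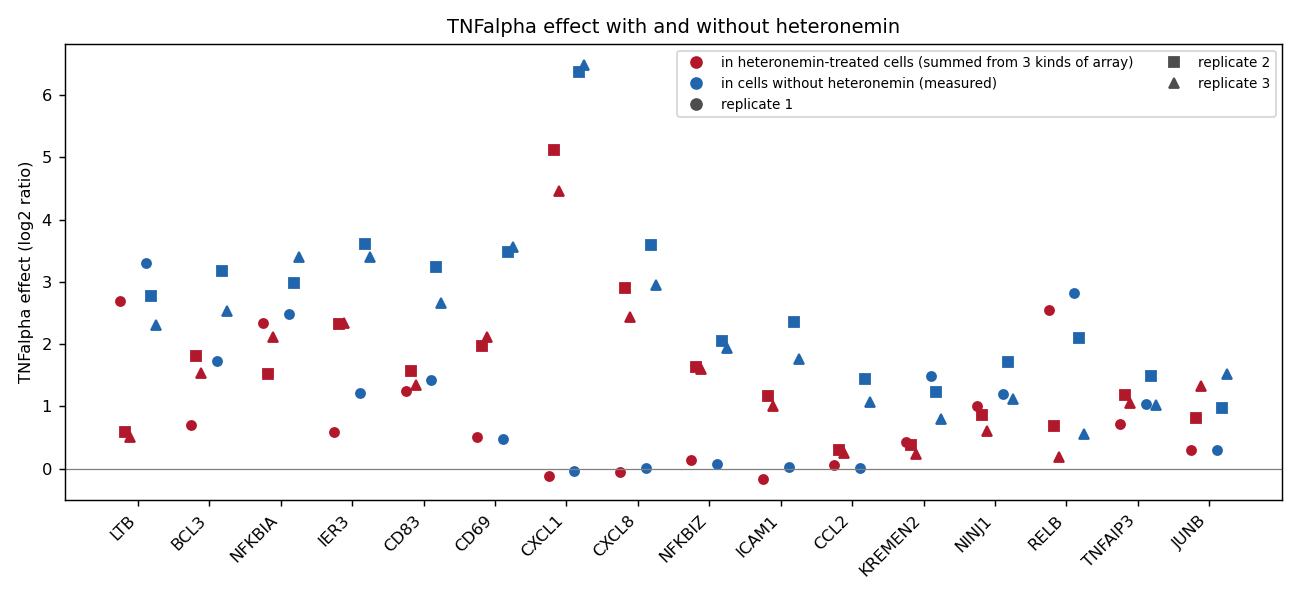
Response to TNFalpha (vertical axis, log2 ratio) of 16 genes in heteronemin-treated cells (left of each pair, red, summed from 3 kinds of array) and in cells without heteronemin (right, blue, measured), with 1 symbol per replicate. LTB, CCL2 and KREMEN2 lie below 0.6 in heteronemin-treated cells in replicates 2 and 3, whereas CXCL1 and CXCL8 lie above 2 there.

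Stress genes with high heteronemin ratios are given next. DDIT3, the gene of the stress factor CHOP that promotes apoptosis, was at 2.18, 2.70 and 2.20 with TNFalpha, against 2.22, 2.70 and 2.32 without it. The groups overlapped, and the difference of −0.054 had a 95% interval of −0.50 to 0.39. CHAC1, which degrades glutathione, was at 1.03, 1.61 and 1.35 against 1.11, 1.69 and 1.41, and SESN2, an inhibitor of mTORC1, at 1.44, 1.59 and 1.08 against 1.62, 1.67 and 1.15. Their intervals were −0.54 to 0.40 and −0.55 to 0.34. ATF3, a stress-induced repressor, was at 1.01, 2.44 and 1.78 against 1.13, 2.45 and 1.62, but its wide spread left an interval of −1.06 to 1.08.

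Over 37 measured ATF4 targets the median heteronemin effect was 0.42 with TNFalpha and 0.44 without it. The median difference was −0.044, with 24 members below 0 and 0 at an unadjusted p under 0.05. For 33 members (89.2%) the interval lay within ±1, beside 98.0% of all genes. The member with the most negative difference was PPP1R15A, a phosphatase regulator that ends the stress response, at 1.40, 0.83 and 0.56 against 1.62, 1.17 and 0.92. It was lower with TNFalpha in all 3 replicates, with a difference of −0.31 and an interval of −0.93 to 0.31. HBP1, a transcriptional repressor, was at 1.21, 1.71 and 1.42 with TNFalpha, against 1.48, 1.40 and 1.38 without it. Of the genes at the low end, PLD6, a mitochondrial surface protein, was at −2.05, −1.38 and −1.21 against −2.26, −1.45 and −1.43, and FJX1 at −1.75, −1.53 and −1.33 against −1.63, −1.45 and −1.40. The differences of these 3 genes were 0.027, 0.17 and −0.047.

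**Figure D4:**
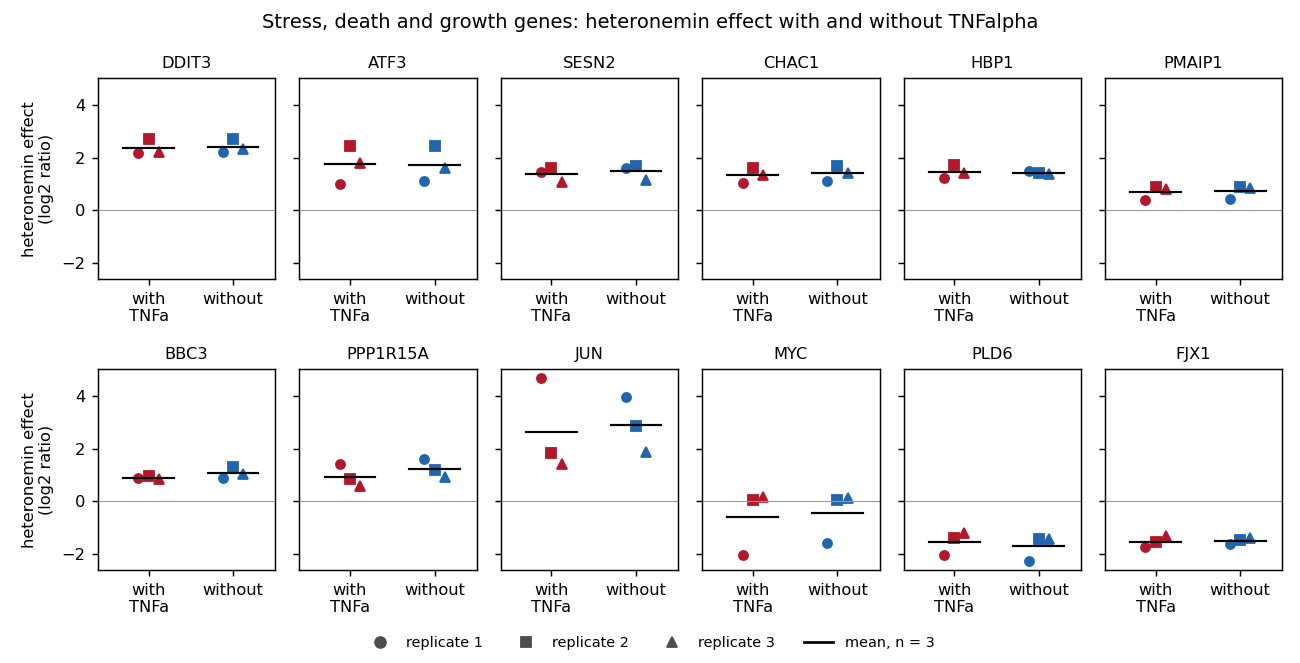
Heteronemin effect (vertical axis, log2 ratio) for 12 stress, death and growth genes, with TNFalpha (left, red) and without it (right, blue), as 3 replicates and their mean. The means of DDIT3, ATF3, CHAC1 and HBP1 differ by 0.073 or less, and JUN and MYC vary more between replicates than between the 2 conditions.

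JUN, an AP-1 subunit, was at 4.66, 1.84 and 1.42 with TNFalpha, against 3.97, 2.86 and 1.86 without it. Its difference was positive in replicate 1 and negative in replicates 2 and 3, at 0.69, −1.03 and −0.45, and its interval of −2.50 to 1.98 left either direction possible. MYC was at −2.04, 0.055 and 0.17 against −1.60, 0.062 and 0.14, low in replicate 1 under both conditions and near 0 otherwise. Of 12 AP-1 genes 7 had negative differences, with a median of −0.092, and 0 reached an unadjusted p under 0.05.

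Immediate-early genes were split, with 9 of 22 below 0 and a median of 0.016. DUSP10, a phosphatase that acts on stress kinases, was the 1 member at an unadjusted p under 0.05, beside 0.753% of all genes lower. It was at 0.95, 0.54 and 0.61 with TNFalpha, against 1.00, 0.94 and 1.07 without it. KLF6, a transcription factor, was at 0.78, 1.00 and 0.92 against 0.87, 1.47 and 1.32. Both were lower with TNFalpha in replicates 2 and 3 and nearly alike in replicate 1. SRF, which drives early genes after growth signals, was at −0.65, −0.40 and −0.48 against −0.21, −0.42 and −0.16.

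Among 21 pro-apoptotic genes 14 had negative differences, with a median of −0.054, and 0 reached an unadjusted p under 0.05. PMAIP1, which encodes the BH3-only protein NOXA, was at 0.39, 0.88 and 0.80 with TNFalpha, against 0.43, 0.89 and 0.85 without it. BBC3, which encodes PUMA, was at 0.90, 0.95 and 0.83 against 0.88, 1.31 and 1.04, and its 3 features had differences of −0.47, −0.17 and 0.093. For 20 of the 21 genes (95.2%) the interval lay within ±1, beside 98.0% of all genes. Among 9 anti-apoptotic genes 3 had negative differences, CFLAR being the 1 lower at an unadjusted p under 0.05, beside 0.753% of all genes.

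Of 16 p53 targets 10 had negative differences, with a median of −0.040. GADD45A was at 0.089, 0.14 and 0.32 with TNFalpha, against 0.19, 0.62 and 0.62 without it, and PLK3, a stress kinase, at −0.40, −0.80 and −1.0 against −0.48, −0.27 and −0.50. XPC, a DNA damage sensor, was the 1 member at an unadjusted p under 0.05, beside 0.753% of all genes lower. Its difference of −0.20 was −0.12 without replicate 1. Interferon-stimulated genes had 15 of 24 below 0 and a median of −0.036. Among them IFIT1, an antiviral RNA-binding protein, was at −0.65, −0.42 and −0.082 with TNFalpha, against −0.080, −0.064 and 0.60 without it. Its values barely failed to overlap, at −0.082 in replicate 3 with TNFalpha and −0.080 in replicate 1 without it. IFIT1 was the 1 member of the 24 that lay lower without overlap, beside 3.83% of all genes. Its difference was −0.54 ± 0.17 (SD, n = 3), while TNFalpha alone left it at 0.19, −0.033 and −0.028. Its dye-exchanged arrays disagreed, at 0.023 and −0.86 in replicate 2 with TNFalpha and at 1.37 and −0.18 in replicate 3 without it. TAP1 and IFI35 had differences of −0.15 and −0.12.

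Metallothioneins, which bind zinc and copper, were the list with the highest median difference, 0.34 over 9 genes, all of them above 0. The median was 0.35, 0.80 and −0.13 in replicates 1 to 3, so replicate 3 did not share the direction. MT1E was at 0.75, 2.54 and 0.34 with TNFalpha, against 0.36, 1.71 and 0.11 without it, and MT1B at 1.15, 3.14 and 0.31 against 0.66, 2.23 and 0.44. Replicate 2 was far above the others under both conditions. None of the 9 reached an unadjusted p under 0.05, and only 1 had an interval within ±1, beside 98.0% of all genes. The near-identical MT1 genes may share probe signal, so they do not count as separate genes.

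Tubulin genes had negative differences in 14 of 14 cases, beside 49.3% of all genes, but small ones, with a median of −0.10 and a range of −0.21 to −0.010. The medians were −0.13, −0.067 and −0.037 in replicates 1 to 3. At an unadjusted p under 0.05 there were 3, beside 0.753% of all genes: TUBA1A, an alpha tubulin, at −0.21, −0.15 and −0.28 with TNFalpha against 0.085, −0.0079 and −0.080 without it, TUBB at −0.43, −0.25 and −0.27 against −0.14, −0.12 and −0.12, and TUBB2A at −0.031, −0.12 and −0.15 against 0.095, 0.0043 and 0.13. The dye-exchanged arrays of TUBA1A with TNFalpha differed in sign, at −0.54 and 0.12, −0.31 and 0.0050, and −0.67 and 0.11. Those of TUBB did so in every replicate without TNFalpha, and those of TUBB2A in some replicates. Tubulin genes are alike in sequence, so their probes may share signal. The interval lay within ±0.5 for 12 of the 14 (85.7%), beside 82.2% of all genes.

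Proteasome subunits had 22 of 28 differences below 0 with a median of −0.036, and cytosolic ribosomal proteins 26 of 32 with a median of −0.022. All 28 proteasome intervals lay within ±1, beside 98.0% of all genes. All 32 ribosomal ones lay within ±0.5, beside 82.2% of all genes. PSMC4, an ATPase of the proteasome cap, was the proteasome member at an unadjusted p under 0.05, beside 0.753% of all genes lower. It was at −0.049, −0.048 and −0.093 with TNFalpha against 0.21, 0.083 and 0.089 without it. Its dye-exchanged arrays differed in sign in every replicate under both conditions. PSMA4 and PSMB5 had differences of −0.19 and −0.17. Cholesterol synthesis genes had 15 of 17 below 0, with a median of −0.051 that was 0.025 in replicate 2. Histone genes had 13 of 16 above 0, with medians of 0.27, −0.0061 and 0.058 in replicates 1 to 3, so that the shift was largest in replicate 1.

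The remaining lists stayed close to 0. The median difference was −0.022 for ER chaperones, −0.025 for cytosolic heat shock genes and −0.007 for NRF2 targets. It was 0.022 for anti-apoptotic genes, 0.031 for autophagy genes and −0.017 for genes of MYC and ribosome assembly. It was −0.013 for G1/S genes and 0.041 for G2/M genes. In these 8 lists the members at an unadjusted p under 0.05 were the NRF2 target PGD, an enzyme of the pentose phosphate pathway, at −0.22 (−0.10 without replicate 1), and CFLAR among the anti-apoptotic genes. Both were lower, beside 0.753% of all genes. For PGD the dye-exchanged arrays differed in sign in every replicate under both conditions.

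Markers of cell identity showed no common shift. The 16 measured erythroid genes had a median difference of 0.031, 9 lymphoid markers one of −0.040, 10 monocyte and granulocyte markers one of −0.0028, and 8 reference genes one of −0.033. None of these 43 genes reached an unadjusted p under 0.05. Ratios cannot tell fewer cells with a transcript from less of it per cell.

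**Figure D5:**
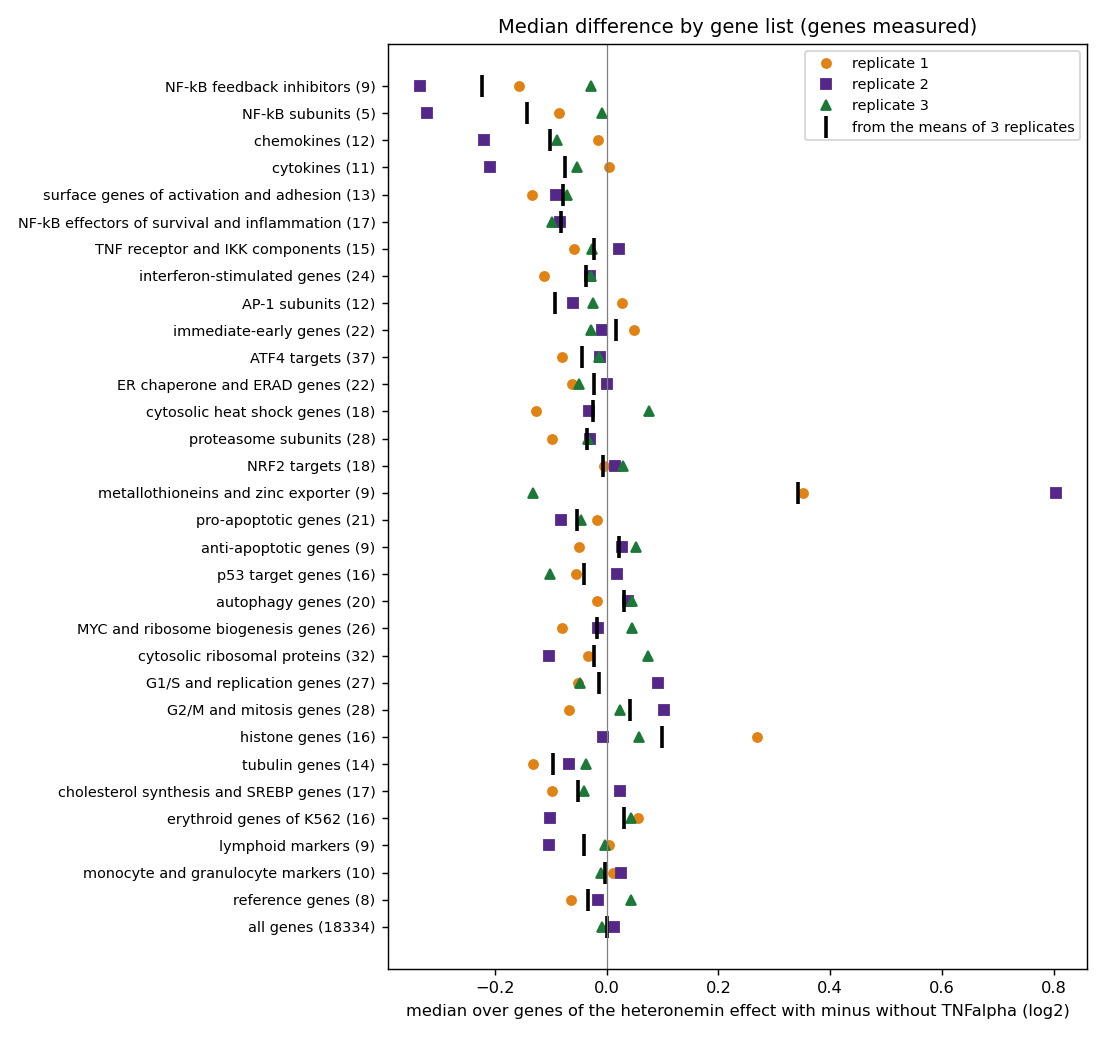
Median over the genes of each of 31 lists, and of all genes, of the heteronemin effect with minus without TNFalpha (horizontal axis, log2), as 3 replicates and the median of the 3-replicate means. The median lies below 0 in all 3 replicates for 5 of the 6 NF-kB lists (all but the cytokines) and also for interferon-stimulated genes, ATF4 targets, proteasome subunits, pro-apoptotic genes and tubulins, and the metallothioneins lie above 0 in replicates 1 and 2 only.

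Beyond the lists, the gene next to KREMEN2 by unadjusted p was SDC4, which encodes the cell surface proteoglycan syndecan-4. It was at −0.35, −0.69 and −0.39 with TNFalpha, against 0.14, 0.092 and 0.085 without it, on opposite sides of 0 in each replicate. The arrays of replicate 1 without TNFalpha read −0.092 and 0.38, so the sign there rests on their mean. The difference was −0.58 ± 0.17 (SD, n = 3). Its 2 features had differences of −0.96 and −0.21. TNFalpha alone gave SDC4 ratios of 0.24, 1.26 and 0.83.

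EFNA1, which encodes the Eph receptor ligand ephrin-A1, was 1 of 5 genes outside the NF-kB lists that passed without replicate 1 with the block (adjusted p = 0.00804 in limma). These 5 were named after their values were seen. It was at 0.084, −1.16 and −0.70 with TNFalpha, against 0.40, 0.061 and 0.20 without it, and its response to TNFalpha alone was 0.16, 2.21 and 1.60. VASN, which encodes vasorin, was at 0.66, −0.18 and −0.20 against 0.85, 0.43 and 0.33, with 0.031, 1.09 and 0.81 under TNFalpha alone. DTX2, a ubiquitin ligase of the Notch pathway, was at −0.55, 0.0048 and −0.49 against −0.32, 0.71 and 0.69, with −0.24, 0.037 and −0.039 under TNFalpha alone. TEX36 and ANGPT4, the other two, had differences of 0.36, −0.81 and −0.72 and 0.57, −0.67 and −0.74 in replicates 1 to 3, with replicate 1 positive in both. With the block, the chemokine gene CCL1, at −0.97, 0.041 and −0.63 against 0.23, 0.056 and 0.68, and ABCA11P also passed without replicate 2. GBX2, a homeobox gene, passed without replicate 3, at −0.16, 0.12 and 0.10 against 0.81, 0.98 and 0.060. Its dye-exchanged arrays disagreed throughout, at 1.91 and −0.29 in replicate 1 and 2.12 and −0.17 in replicate 2 with heteronemin alone, as did those of TEX36 in replicate 1, at −1.58 and 0.57. The CCL1 arrays of replicate 3 read −0.10 and −1.17 with TNFalpha, against 1.29 and 0.075 without it.

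The remaining genes of smallest p below 0 had small differences and did not pass: LINC00326 at −0.39, EMILIN3, an extracellular matrix glycoprotein, at −0.44, PHB1P19 at −0.30, ZNF607 at −0.24 and AQP4-AS1 at −0.26. PHB1P19 is a pseudogene and AQP4-AS1 an antisense gene, so their signal may include related or overlapping transcripts. None of these 5 had a TNFalpha response of 0.5 or more in size in any replicate.

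In the other direction no gene passed with all replicates. The 10 genes of smallest p were ZNF519, WASHC4, TRAPPC8, TCL1A, UQCRB, IGIP, ABCA11P, TAF2, LINC01842 and NOSTRIN, and apart from ABCA11P they lay between 0.24 and 0.34. TCL1A, a coactivator of AKT kinases, was at 0.51, 0.42 and 0.44 with TNFalpha, against 0.25, 0.091 and 0.10 without it. WASHC4, a subunit of the WASH complex of endosomes, was at 0.11, 0.30 and 0.29 against −0.11, −0.11 and −0.059, and UQCRB, a subunit of respiratory complex III, at 0.23, 0.060 and 0.049 against −0.22, −0.14 and −0.32. In each of these the values did not overlap. ABCA11P, a pseudogene, had the highest difference of all genes, 1.54 ± 1.25 (SD, n = 3), but its paired arrays disagreed. In replicate 1 they read 2.61 and 0.094 with TNFalpha, against −2.82 and −0.0097 without it.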

How the data were processed

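The authors deposited log2 ratios of each two-colour Agilent array, treated over control, made with limma per the submitters' processing notes. Background correction, normalization and the limma version were not given in the sources used here. Ratios of dye-exchanged arrays had the same sign for large changes on both arrays of a pair, so they were taken as already turned. Of 45220 features, 13795 without a gene and 93 with several were left out, and 31332 were averaged into 18334 genes, named through the platform's gene IDs. Dim features could not be filtered, since no signal levels were used. The 2 arrays of a replicate were averaged, and limma 3.58.1 in R 4.3.3 tested co-treated against TNFalpha-treated minus heteronemin-treated against untreated cells on 6 values, two-sided, with Benjamini-Hochberg adjustment over all genes and a threshold of 0.05. The script was tested on simulated data. Arrays, not reads, limit the precision, with 3 replicates per comparison.

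Deviations from the group means of same-numbered samples correlated at 0.781, 0.626 and 0.622 for replicates 1 to 3. Replicates 2 and 3 also correlated with each other (0.555 and 0.479). The deviations within a comparison sum to 0, and replicate 1 stood apart in both comparisons. The labels do not say that a number marks a shared culture or day, so pairing by number was not established. The fit with the replicate number as a block was an alternative, beside leaving out replicates, scaling, array weights, the median of features and arrays as separate values.

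The genes named were up to 10 per direction that passed or had the smallest p, up to 3 of smallest p per list, and a set list of fixed genes. CD69, EFNA1, TEX36, ANGPT4, DTX2, VASN, CCL1, GBX2, CXCL2, CXCL3, IL6, NFKB1, RELA, NFKBIE, NUAK2, PLAU and TNFRSF1A were named after their values were seen. The comparison and all lists were chosen with earlier results of these data known.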

Additional observations from a re-analysis of the deposited data

Results flagged for a closer look

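For 13 of the 88 named genes the mean heteronemin effect of paired arrays had opposite signs in every replicate of the 2 conditions. Of all 18334 genes, 0.9% were above 0 with heteronemin alone and below 0 with TNFalpha, and 0.72% were the other way round. Many of the 88 were named for a small p of this same difference, which favours opposite signs. The 13 therefore cannot be compared with these shares. The difference itself was tested with limma, and it passed for none of the 13 with all replicates. The genes below 0 with TNFalpha and above 0 without it were BCL3 with a difference of −1.13, SDC4 with −0.58, AQP4-AS1 with −0.26, PSMC4 with −0.19, TAB1 with −0.18, TUBB2A with −0.18 and NFKB2 with −0.15. The genes above 0 with TNFalpha and below 0 without it were TAF2 with 0.24, IGIP with 0.24, ZNF519 with 0.29, LINC01842 with 0.30, WASHC4 with 0.33 and UQCRB with 0.34. For TAB1 the difference was −0.078 without replicate 1. The BCL3 arrays of replicate 1 with heteronemin alone read 0.20 and −0.16, so its sign there rests on their mean. Each of the 13 genes had a dye-exchanged pair that differed in sign, some of them many. With TNFalpha, PSMC4 read −0.21 and 0.11, −0.30 and 0.20, and −0.33 and 0.15 in replicates 1 to 3. IGIP read 0.28 and −0.15, 0.27 and −0.22, and 0.25 and −0.18.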

How the results depend on the processing

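With all replicates, 0 genes passed in either direction in limma under every setting, the replicate block included. Without replicate 1, 5 genes were lower, and with a sample of 1 kind of array left out 0 passed. With the replicate block as well, 15 genes were lower without replicate 1, 2 lower and 1 higher without replicate 2, and 3 lower without replicate 3. In fits chosen after seeing the data, 6 genes were lower without replicate 1 on scaled arrays and 16 on 8 separate arrays. The 8 arrays are dye-exchanged pairs of 2 replicates, entered as separate values with a correlation within pairs of −0.322. That fit had 6 residual degrees of freedom, against 2 on replicate means, so its count overstates the replication. The block changed no other call. Without replicate 1, 2 inhibitors, 2 surface genes and 1 effector passed, and with the block 2 inhibitors, 2 chemokines, 1 cytokine, 4 surface genes and 1 effector. The cause of these changes was not tested. For the 88 genes named, 1970 of 2024 values under 23 other settings kept the direction. Several settings, such as the replicate block with all replicates or the robust prior, change only the estimated spread and leave the difference as it was. Their direction could not change, so the count is no measure of robustness. Opposite directions on arrays scaled to a common spread were −0.030 for ATF3, −0.013 for HBP1 and 0.053 for FJX1. With the median of features ATF3 was at −0.073, and with array weights ATF3 was at −0.019, MYC at 0.056 and FJX1 at 0.0062. With a replicate left out, values lay between −0.34 and 0.38 for ATF3, −0.22 and 0.077 for CHAC1, −0.16 and 0.084 for CXCL3 (−0.18 at its lowest with 1 kind of array left out), −0.22 and 0.087 for DDIT3, −0.15 and 0.061 for FJX1, −0.11 and 0.17 for HBP1, −1.27 and 0.35 for JUN, −0.38 and 1.04 for MT1B, −0.19 and 0.97 for MT1E, −0.70 and 0.58 for MYC, −0.20 and 0.0042 for NFKB1, −0.11 and 0.42 for PLD6, −0.18 and 0.12 for PMAIP1, −0.088 and 0.00080 for RELA, −0.27 and 0.035 for SESN2, −0.39 and 0.043 for TNFAIP3, and −0.041 and 0.14 for TNFRSF1A. With the replicate block also in the fit, ATF3 was at −0.064 without replicate 3, JUN at 0.12, HBP1 at −0.11, NFKB1 at 0.0042 and CXCL3 at 0.084 without replicate 2, and MYC at 0.014 without replicate 1, as on 8 separate arrays. Without replicate 1 on scaled arrays MYC was at 0.0032 and FJX1 at 0.024. Of 124 list medians 10 moved, on scaled arrays to −0.036 for surface genes and −0.072 for effectors, and otherwise with a replicate left out. Left-out ranges were −0.14 to −0.047 for surface genes, −0.087 to −0.063 for effectors, −0.088 to −0.034 for interferon-stimulated genes, −0.097 to 0.00049 for AP-1 genes (−0.012 without replicate 1), −0.062 to −0.014 for ER chaperones, −0.025 to 0.0025 for NRF2 targets and −0.11 to −0.015 for p53 targets.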
